A study of Mus musculus with 35 samples.

Results

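Pre-B cells were compared with pro-B cells of mouse bone marrow, as 3 arrays titled pre-B against 3 arrays titled pro-B, which are 6 of the 35 arrays of the series. All 6 came from wild-type mice. Pro-B cells had been sorted by flow cytometry as B220+, CD43-high and IgM-, and pre-B cells as B220+, CD43-low and IgM-, so that only the level of surface CD43 separates the sorts. Pro-B replicates 1 and 2 and all pre-B arrays came from strain 129, and pro-B replicate 3 from strain B6. The series profiled sorted normal B cells of 6 stages (22 arrays) and 13 lymphoid tumours on Affymetrix Mouse 430A2 arrays, after amplification of the RNA. Transitional B-cell arrays came from strain 129, and germinal centre, plasmablast and plasma cell arrays from strain B6. Where levels are set beside those strain B6 groups, stage and strain cannot be told apart. The labels do not say whether the replicates were separate mice or pools, so p-values measure a spread between arrays that may be technical. That spread was estimated within the 6 stages over all 22 normal arrays, not from the 6 compared arrays alone.

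B cells form in the bone marrow. Pro-B cells join the gene segments of the immunoglobulin heavy chain, using the Rag recombinase and the polymerase terminal transferase, which adds bases at the joins. A finished heavy chain pairs with the surrogate light chain, made of Vpreb and Igll1 proteins, into the pre-B cell receptor, after which cells divide, shut off the surrogate light chain, and as pre-B cells rearrange the kappa or lambda light chain genes.

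The results turn on Vpreb1 and Igll1 and on genes of other blood lineages, so the start regions of 4 of these genes are shown first. They are RefSeq promoter windows of build GRCm38.p6, from 250 bases before to 50 bases after the gene start, printed 5′ to 3′ on the strand of the gene. Capitals mark matches, on either strand, to CCCNNGGG (a core that EBF proteins bind) and CAGGTG (an E-box that E2A proteins bind) in Vpreb1 and Igll1, to GATAA (bound by GATA proteins) in Alas2, and to GAAA, any 2 bases and GAAA (an interferon response core) in Rsad2.
Vpreb1, chr16:16869206-16869505, minus strand: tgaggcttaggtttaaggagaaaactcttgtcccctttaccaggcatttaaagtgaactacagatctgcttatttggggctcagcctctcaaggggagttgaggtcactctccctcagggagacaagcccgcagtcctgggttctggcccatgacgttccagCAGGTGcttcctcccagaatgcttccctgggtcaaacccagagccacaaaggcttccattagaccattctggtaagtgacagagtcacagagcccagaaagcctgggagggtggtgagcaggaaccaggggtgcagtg
Igll1, chr16:16863936-16864235, minus strand: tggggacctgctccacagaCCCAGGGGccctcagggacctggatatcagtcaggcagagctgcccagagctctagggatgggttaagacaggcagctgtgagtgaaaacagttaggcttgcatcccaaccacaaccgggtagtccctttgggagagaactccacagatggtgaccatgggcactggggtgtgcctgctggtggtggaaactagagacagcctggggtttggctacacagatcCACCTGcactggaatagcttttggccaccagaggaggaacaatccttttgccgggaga
Alas2, chrX:150547167-150547466, plus strand: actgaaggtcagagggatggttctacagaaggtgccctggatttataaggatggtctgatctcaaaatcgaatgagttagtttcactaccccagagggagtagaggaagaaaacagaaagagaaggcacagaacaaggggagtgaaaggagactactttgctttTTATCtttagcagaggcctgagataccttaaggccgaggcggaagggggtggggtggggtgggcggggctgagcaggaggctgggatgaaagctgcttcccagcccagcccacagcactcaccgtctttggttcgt
Rsad2, chr12:26456403-26456702, minus strand: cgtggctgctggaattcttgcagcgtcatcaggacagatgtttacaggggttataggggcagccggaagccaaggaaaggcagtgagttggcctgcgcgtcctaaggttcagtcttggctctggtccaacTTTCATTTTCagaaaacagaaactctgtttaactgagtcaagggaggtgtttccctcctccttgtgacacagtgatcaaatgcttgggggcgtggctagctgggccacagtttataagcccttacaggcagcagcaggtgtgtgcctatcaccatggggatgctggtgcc
The starts of Vpreb1 and Igll1 lie 5270 bases apart on the same strand of chromosome 16. The Vpreb1 window held 1 CAGGTG match and the Igll1 window held 1 CAGGTG match and 1 CCCNNGGG match, while 20.2% and 13.7% of all 32851 promoter windows hold these motifs. The Alas2 window held 1 GATAA match, as did 25.4% of all windows. The Rsad2 window held 1 match to the interferon response core, as did 3.44% of all windows, and also 1 CAGGTG match that is not in capitals. These matches describe the letters of the windows only.

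Pro-B replicate 1 and pre-B replicate 2 stood apart and were given low weight. Values are log2 intensities from RMA, the authors' array summary, and their interquartile range was 2.09 in pro-B replicate 1 and 2.03 in pre-B replicate 2, against 3.71 to 4.02 in the other 4 arrays. Over the 12393 genes measured, the other 4 arrays correlated with each other at r = 0.956 to 0.977. Pro-B replicate 1 correlated with these 4 at 0.66 to 0.67 and pre-B replicate 2 at 0.566 to 0.588. For Actb and Gapdh, 3′ control probe sets exceeded 5′ ones, a gap that widens with shorter RNA, by 2.95 in pro-B replicate 1, 2.27 in pre-B replicate 2 and 0.933 to 1.43 in the other 4. Weights estimated from the data gave pro-B replicate 1 10.4% and pre-B replicate 2 8.45% of the median weight of the 22 normal arrays, and 94% to 102% to the other 4, so the fitted differences below rest mainly on pro-B replicates 2 and 3 and pre-B replicates 1 and 3. The sort markers did not pass the test at the RNA level: differences (pre-B minus pro-B, log2, ± SE) were -0.02 ± 0.32 for Spn, which encodes CD43, 0.37 ± 0.34 for Ptprc, which encodes B220, and 0.30 ± 0.50 for Ighm, the heavy chain of IgM (limma adjusted p = 0.997, 0.858 and 0.949).

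Among the genes that were lower in pre-B cells were Vpreb1 of the surrogate light chain, the transcription factor Erg, and Xcl1 and Eomes, which are known from natural killer (NK) cells. Among those that were higher were the kappa segments Igkv9-120 and Igk-V21, the interleukin 2 receptor chain Il2ra, the interferon-induced Rsad2 and Isg20, and Alas2, Rhd and Fech of red cell precursors. At a Benjamini-Hochberg adjusted p under 0.05, 89 of 12393 genes (0.718%) were called, 51 higher (0.412%) and 38 lower (0.307%) in pre-B cells (n = 3 and 3). In 46 of the 89, all 3 pre-B arrays lay on one side of all 3 pro-B arrays, 30 above and 16 below, against 4.65% and 2.9% of all genes. The 89 were chosen for their difference in these arrays, so that excess follows from the choice. Without both arrays of narrow spread, 133 genes (1.07%) were called, 73 higher (0.589%) and 60 lower (0.484%), among them 87 of the 89. The main fit already gave the narrow arrays little weight, so most of the 89 were bound to stay. The calls were lost without the shared spread of the 22 normal arrays. Limma restricted to the 6 arrays called 0 genes (281 had an unadjusted p under 0.05, against 1169 or 9.43% in the fit on 22 arrays). In the fit on normal arrays, limma called 0 when pro-B replicate 2 was left out (1625 unadjusted), 0 when pre-B replicate 1 was (2735) and 0 when pre-B replicate 3 was (2090). It called 2 when pro-B replicate 3 was left out, which leaves strain 129 only. Each of these 4 fits left a group of 1 narrow and 1 heavily weighted array, whose precision the weights cannot tell apart. The narrow array then counted about as much as its partner, here and below. The loss of the array left out and the weight of the narrow array therefore cannot be told apart in these fits. The 89 genes all kept their sign among the strain 129 arrays, where 66 had an unadjusted p under 0.05 and Cd7 and Prg3 were called. The 89 had been chosen in a fit that held these same arrays, so this is not separate support.

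**Figure D1:**
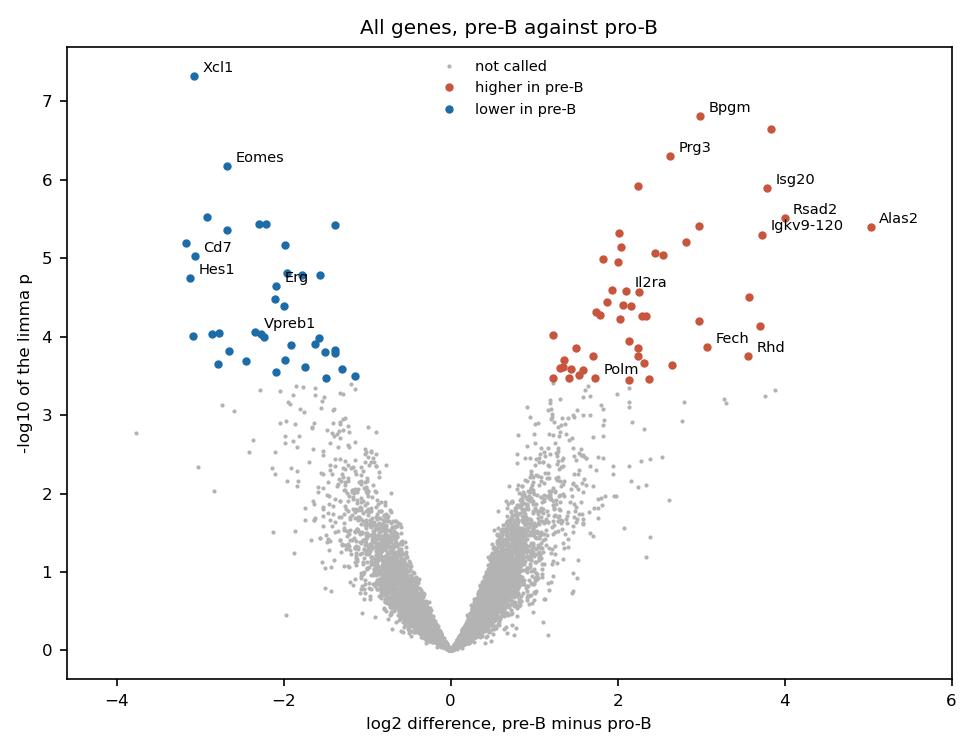
Log2 difference (pre-B minus pro-B, horizontal) against -log10 of the limma p (vertical) for 12393 genes, with called genes in colour. The 51 genes higher in pre-B cells reach a difference of 5.03 (Alas2), and of the 38 lower genes Xcl1 has the smallest p.

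Of the surrogate light chain genes, Vpreb1 fell and Igll1 did not pass the test at gene level. Vpreb1, which encodes the variable-like part, read 10, 11.66 and 11.23 in pro-B replicates 1 to 3 and 9.33, 4.16 and 9.16 in pre-B replicates 1 to 3. All pre-B arrays were below all pro-B arrays, and the array of narrow spread was by far the lowest. The difference was -2.34 ± 0.49 (limma adjusted p = 0.0225), and -2.20 without both narrow arrays (adjusted p = 0.00584). The call was lost with no array weights (-3.41, adjusted p = 0.114), and over the single arrays left out the difference ran from -1.60 without pro-B replicate 2 (adjusted p = 0.386) to -4.62 and -4.70 without pre-B replicates 3 and 1 (adjusted p = 0.254 and 0.117). Igll1, the constant-like part, has a pair of probe sets that disagree. The one used at gene level, brighter on average over the 22 arrays, read 7.29, 7.71 and 7.45 in pro-B and 7.38, 7.12 and 7.47 in pre-B arrays and did not differ beyond its spread (-0.15 ± 0.36, adjusted p = 0.967). The other Igll1 probe set read 9.94, 11.64 and 11.50 in pro-B and 8.78, 5.74 and 8.62 in pre-B arrays, again with no overlap. It fell by 2.91 on the log2 scale (SE 0.35, limma adjusted p = 8.22e-05 over 20380 probe sets, of which 154 or 0.756% were called), a probe set singled out after its values were seen. By its identifier (suffix x_at) it can also read similar sequences.

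**Figure D2:**
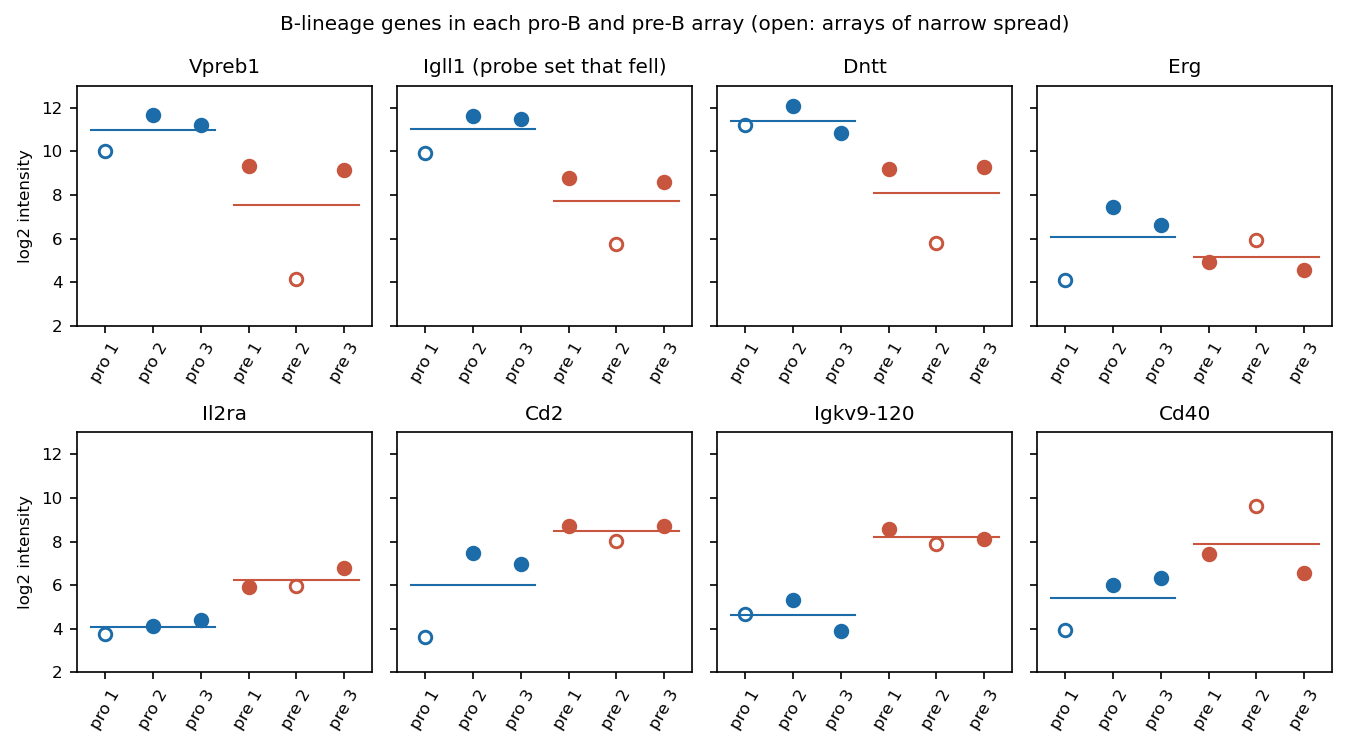
Log2 intensity of 8 B-lineage genes in each pro-B (blue) and pre-B (red) array, with open symbols for the 2 arrays of narrow spread and lines at the plain group means. Vpreb1, the second Igll1 probe set and Dntt lie lower, and Il2ra, Cd2 and Igkv9-120 higher, in every pre-B array than in every pro-B array, while Erg overlaps through the narrow arrays.

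Of 15 measured genes of the surrogate light chain and pre-B receptor signalling, 1 (Vpreb1) fell and 0 rose, beside 0.307% and 0.412% of all genes. The median difference was 0.09 (all genes 0.08). Cd79b, a signalling chain of the receptor, read 8.10, 10.10 and 10.49 in pro-B and 11.26, 10.26 and 11.09 in pre-B arrays (0.95 ± 0.29, adjusted p = 0.181). Syk, the kinase that binds it, differed by 1.22 ± 0.50 (adjusted p = 0.419) and Fyn, a Src family kinase, by -1.36 ± 0.38 (adjusted p = 0.121, and 0.0363 without both narrow arrays).

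Among 12 genes of V(D)J recombination 1 rose and 0 fell (median 0.10), beside 0.412% and 0.307% of all genes. The gene that rose was Polm, a polymerase of DNA end joining related to terminal transferase. It read 6.56, 5.24 and 6.59 in pro-B and 8.10, 4.41 and 7.57 in pre-B arrays, overlapping through pre-B replicate 2 (1.73 ± 0.41, limma adjusted p = 0.0485). It was 0.56 with no array weights, 1.09 when pro-B replicate 2 was left out, and 0.03 and 0.30 when pre-B replicates 1 and 3 were, and was called in none of these. Dntt, terminal transferase itself, read 11.19, 12.10 and 10.86 in pro-B and 9.19, 5.80 and 9.27 in pre-B arrays. Every pre-B array was lower, but with an SE of 0.68 the difference of -2.37 did not pass the test at gene level (adjusted p = 0.134). In a fit of every probe set, another Dntt probe set passed (-3.14 ± 0.43, limma adjusted p = 4e-04), beside 0.756% of all probe sets. The remaining Dntt probe set did not (-1.94 ± 0.56, adjusted p = 0.138). The recombinase subunits Rag1 (1.06 ± 0.56, adjusted p = 0.597) and Rag2 (0.90 ± 0.40, adjusted p = 0.472) did not pass either. Rag1 read 8.78 and 8.62 in pro-B replicates 2 and 3, 9.67 and 9.78 in pre-B replicates 1 and 3, and 4.71 and 5.81 in the narrow arrays.

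The kappa light chain segments Igkv9-120 and Igk-V21 rose. Igkv9-120 read 4.66, 5.32 and 3.88 in pro-B and 8.59, 7.88 and 8.10 in pre-B arrays, so that the groups were far apart (3.73 ± 0.63, limma adjusted p = 0.00364). Igk-V21 read 5.14, 6.77 and 5.98 in pro-B and 9.95, 10.45 and 9.78 in pre-B arrays (3.57 ± 0.69, adjusted p = 0.011). In the fit of every probe set, 3 of 21 kappa probe sets were called higher and 0 lower, beside 0.388% of all probe sets called higher. Of the 21 differences 17 were positive (median 0.61), and the 3 called probe sets belong to these 2 segments. Of 19 heavy chain probe sets 1 was called higher and 0 lower. It is annotated to Ighm and read 6.84, 5.58 and 4.73 in pro-B and 9.71, 7.60 and 9.67 in pre-B arrays (4.40 ± 1.02, adjusted p = 0.0378). Another 4 Ighm probe sets differed by 4.59 to 5.38 without passing (adjusted p = 0.0574 to 0.151), while the brightest Ighm probe set differed by 0.29 ± 0.50. Segments resemble each other, so these probe sets may read several of them. The 2 lambda probe sets did not pass (1.5 and 1.61).

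Of 23 measured transcription factors of the early B lineage, 1 fell, 0 rose and the median was -0.11, beside 0.307% of all genes called lower. Erg, an Ets factor of stem cells and early B progenitors, read 4.11, 7.44 and 6.62 in pro-B and 4.95, 5.96 and 4.55 in pre-B arrays. The 4 broad arrays were apart, while pro-B replicate 1 was below every pre-B array (-2.09 ± 0.39, limma adjusted p = 0.00913). It was -0.91 with no array weights, -0.57 without pro-B replicate 2 and -0.98 without pro-B replicate 3, and was called in none of these. Lef1, a Wnt pathway factor of early B cells, read 8.17, 7.31 and 7.47 in pro-B and 5.52, 4.51 and 5.81 in pre-B arrays, with no overlap (-1.80 ± 0.47, adjusted p = 0.0804). Tcf4, an E protein, differed by -1.40 ± 0.40 (adjusted p = 0.124, and 0.0111 without both narrow arrays), and Id3, an inhibitor of E proteins, by -1.53 ± 0.46 (adjusted p = 0.167). The other Tcf4 probe sets differed by 0.02 to -1.8. That at -1.8 ± 0.36 passed in the fit of every probe set (limma adjusted p = 0.0145). Ebf1 (-0.27 ± 0.40) and Pax5 (0.72 ± 0.38), factors that set and hold B-cell identity, did not pass (adjusted p = 0.933 and 0.58).

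Surface receptors of this step were called through Il2ra, the alpha chain of the interleukin 2 receptor (CD25) and a marker of pre-B cells. It read 3.74, 4.15 and 4.40 in pro-B and 5.91, 5.97 and 6.79 in pre-B arrays, with no overlap in any array (2.10 ± 0.40, limma adjusted p = 0.00977). It was the 1 gene called among 10 surface genes of the step and among 17 genes of interleukin 7 and early growth factor signalling. For all genes the share called higher was 0.412%. Cd2, an adhesion receptor, read 3.63, 7.47 and 6.97 in pro-B and 8.71, 8.02 and 8.71 in pre-B arrays (1.64 ± 0.40, adjusted p = 0.0568, and 0.0254 without both narrow arrays). Flt3, a receptor of early progenitors, read 6.22, 7.84 and 5.97 in pro-B and 5.65, 4.88 and 4.17 in pre-B arrays (-1.98 ± 0.56, adjusted p = 0.124). Il7r, the interleukin 7 receptor, differed by 0.07 ± 0.46 (adjusted p = 0.986).

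Genes of mature B cells were not called (0 of 15, median 0.28), nor were genes of MHC class II presentation (0 of 9, median 0.47), beside 0.718% of all genes. At an unadjusted p under 0.05, 3 of the 15 and 2 of the 9 were higher, against 5.37% of all genes. Cd40, a receptor for T-cell help, read 3.96, 6.00 and 6.33 in pro-B and 7.41, 9.63 and 6.58 in pre-B arrays. Its lowest pre-B array lay just above its highest pro-B array (1.04 ± 0.43, adjusted p = 0.426). Fcer2a (CD23), the low-affinity IgE receptor, differed by 1.5 ± 0.61 (adjusted p = 0.42) and H2-Aa, an MHC class II chain, by 0.72 ± 0.28 (adjusted p = 0.378).

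Placed among the other sorted stages, Dntt averaged 11.38 ± 0.64 (SD, n = 3) in pro-B, 8.09 ± 1.98 (n = 3) in pre-B and 4.10 ± 0.20 (n = 4) in transitional B cells of the spleen. Vpreb1 averaged 10.96 ± 0.86, 7.55 ± 2.94 and 3.97 ± 0.07 in the same order. Lef1 averaged 7.65 ± 0.46, 5.28 ± 0.69 and 3.86 ± 0.55. Cd40 ran the other way, at 5.43 ± 1.28, 7.87 ± 1.58 and 9.37 ± 0.39. The pre-B level lay between its neighbours for each of the 4 genes, with the wide pre-B spread coming from replicate 2.

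**Figure D3:**
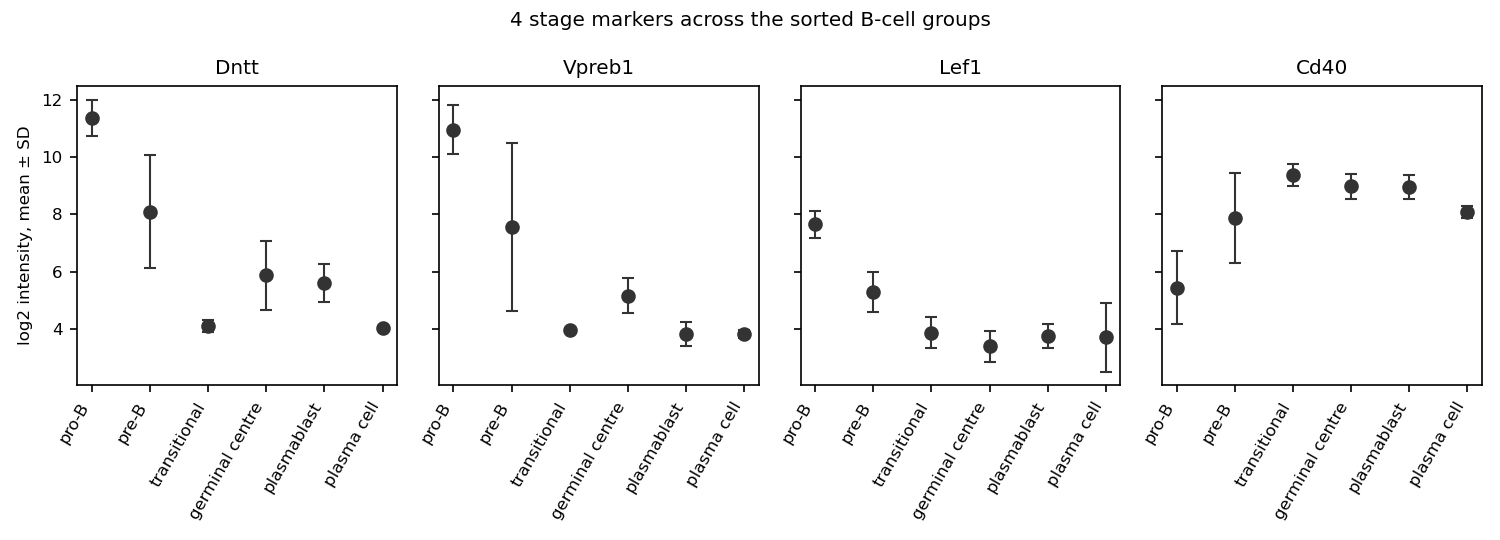
Mean log2 intensity ± SD of 4 stage markers in the 6 sorted groups (n = 3 pro-B, 3 pre-B, 4 transitional, 5 germinal centre, 4 plasmablast and 3 plasma cell arrays). Dntt, Vpreb1 and Lef1 are highest in pro-B cells, and Cd40 is lowest there.

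Genes of cell division and growth were not called at gene level. Of 19 mitosis genes 0 were called (median 0.13), of 22 DNA replication genes 0 (median -0.17, 18 negative), of 17 G1 cyclins, kinases and inhibitors 0 (median 0.06), and of 19 genes of ribosome biogenesis 0 (median -0.73, 17 negative). At an unadjusted p under 0.05, 6 of the 19 ribosome biogenesis genes were lower, against 4.07% of all genes. Over all genes, 0.718% were called, 5246 of 12393 differences were negative and the median was 0.08. Srm, which makes spermidine, read 10.09, 8.79 and 7.79 in pro-B and 7.03, 5.89 and 7.19 in pre-B arrays, with no overlap (-1.32 ± 0.36, adjusted p = 0.101). Ccnd2, a G1 cyclin, differed by -1.46 ± 0.53 (adjusted p = 0.314), and Bcl2, a survival gene, by -1.99 ± 0.58 (adjusted p = 0.141). The other Ccnd2 probe sets differed by -0.91 to -2.18. That at -2.18 ± 0.52 passed in the fit of every probe set (limma adjusted p = 0.0452).

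**Figure D4:**
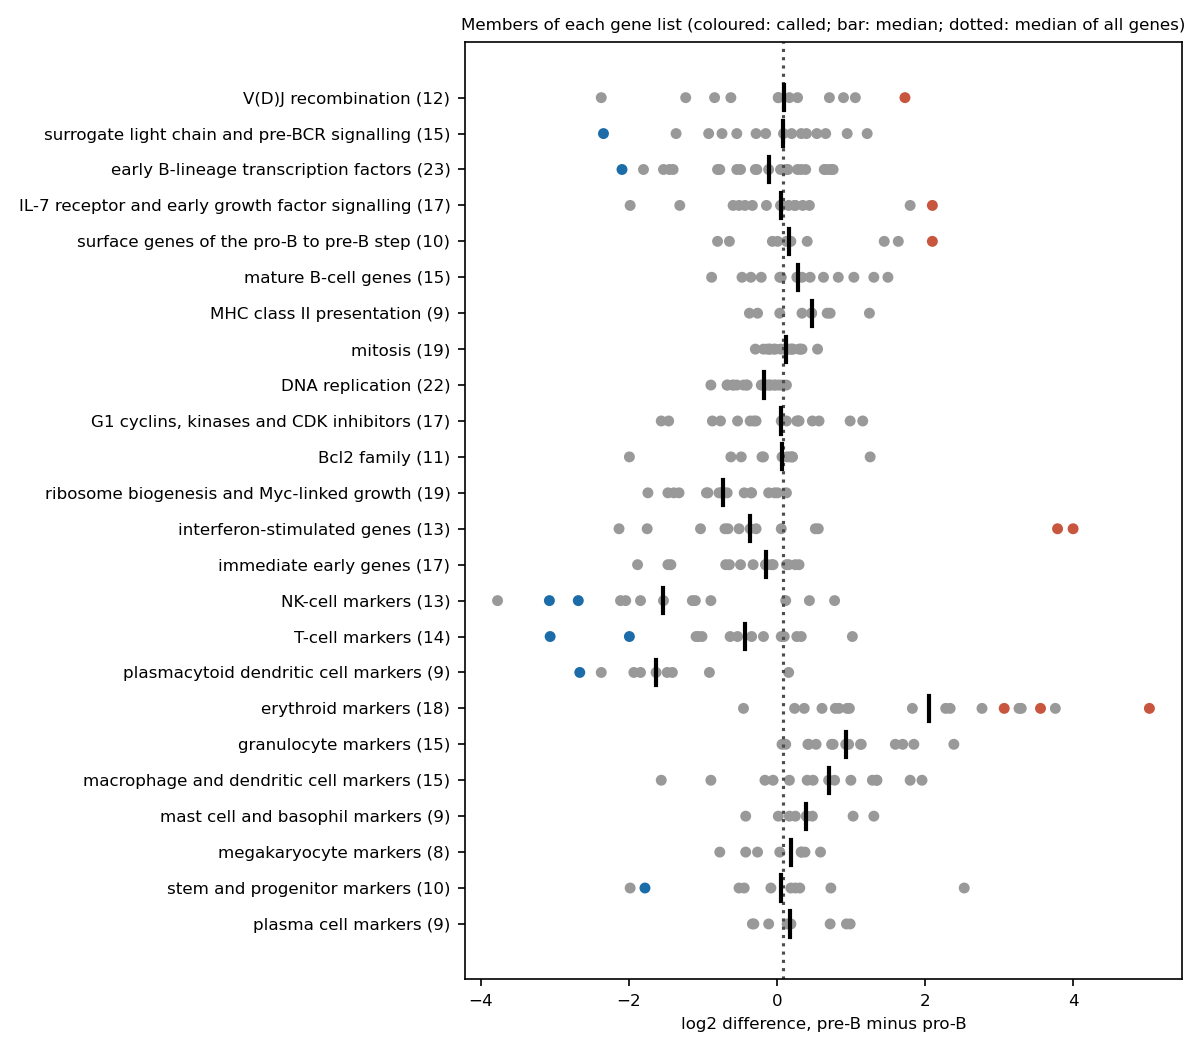
Log2 difference (pre-B minus pro-B) of each measured member of 24 gene lists, with called members in colour, list medians as bars, the number of measured members in brackets and the median of all genes as a dotted line. The erythroid list has the highest median (2.06), and the NK-cell and plasmacytoid dendritic cell lists the lowest (-1.53 and -1.63).

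Alas2 had the largest increase of the called genes, and other genes of red cell precursors rose with it. Alas2, the first enzyme of heme synthesis in red cells, read 8.75, 3.77 and 7.09 in pro-B and 10.79, 10.01 and 10.57 in pre-B arrays, with no overlap but a wide spread among pro-B arrays (5.03 ± 0.83, limma adjusted p = 0.00352). Without pro-B replicate 2, its lowest array, it was 2.73 (adjusted p = 0.298). Fech, the last enzyme of heme synthesis, read 6.63, 6.86 and 8.33 in pro-B and 10.86, 10.08 and 10.45 in pre-B arrays (3.07 ± 0.67, adjusted p = 0.0284). Rhd, a blood group protein of the red cell membrane, read 4.65, 3.81 and 5.43 in pro-B and 7.92, 10.61 and 8.23 in pre-B arrays (3.56 ± 0.79, adjusted p = 0.032). These 3 were the called members among 18 measured erythroid genes, 0 were called lower, 17 of 18 differences were positive and the median was 2.06. Of all genes, 0.412% were called higher, 7147 of 12393 differences were positive and the median was 0.08. Bpgm, which makes the 2,3-bisphosphoglycerate of red cells, rose by 2.99 ± 0.40 (adjusted p = 0.000935), Sptb, erythroid spectrin, by 2.24 ± 0.49 (adjusted p = 0.0285), and Blvrb, a reductase abundant in red cells, by 2.38 ± 0.56 (adjusted p = 0.0488). The mean level of the erythroid list was 4.82 to 5.75 in pro-B and 6.70 to 7.33 in pre-B arrays, and 4.61 to 4.76 in transitional B cells. That level was 4.87 to 5.29 in germinal centre B cells, 4.69 to 7.19 in plasmablasts and 4.37 to 4.72 in plasma cells. In bulk samples, fewer cells of a type and less RNA per cell cannot be told apart.

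**Figure D5:**
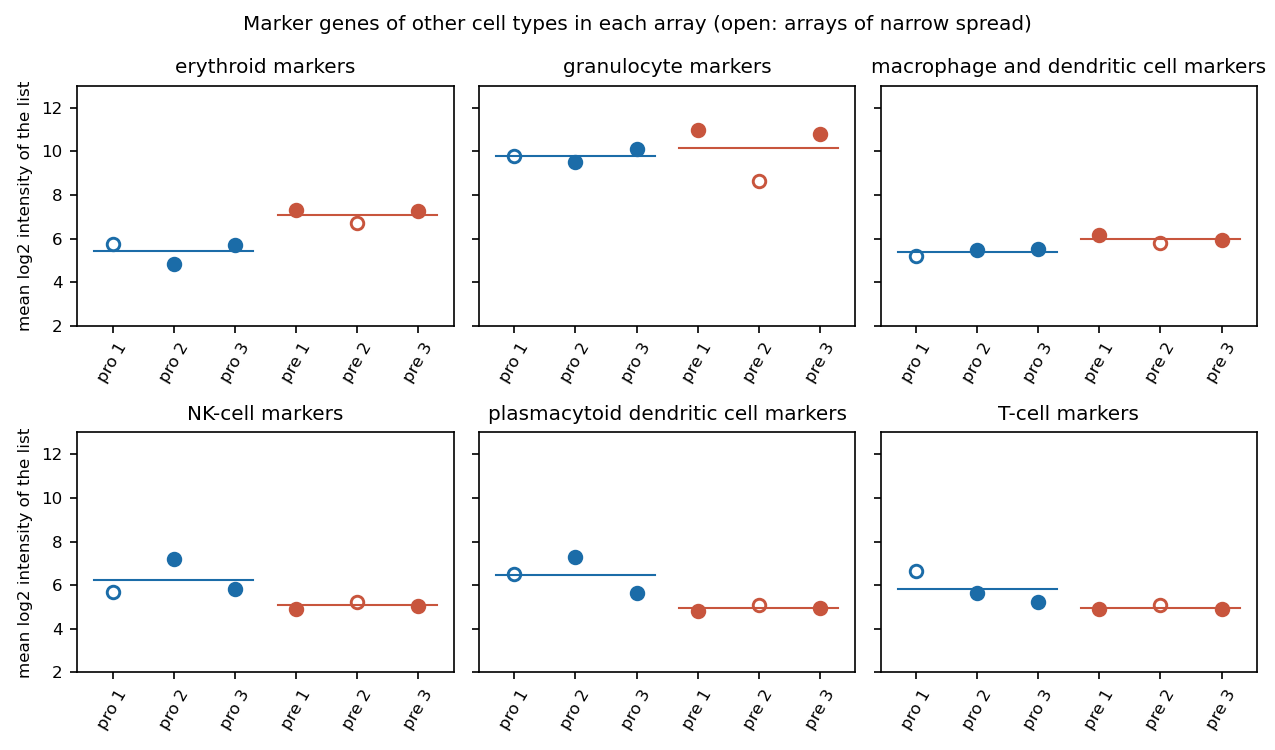
Mean log2 intensity of 6 marker lists of other cell types in each pro-B (blue) and pre-B (red) array, with open symbols for the 2 arrays of narrow spread and lines at the group means. The erythroid list is higher, and the NK-cell, plasmacytoid dendritic cell and T-cell lists lower, in every pre-B array than in every pro-B array.

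Granulocyte genes were high in both sorts, with a mean level of 9.52 to 10.11 in pro-B and 8.65 to 10.98 in pre-B arrays against 4.22 to 5.25 in transitional B cells. That level was 6.1 to 8.13 in germinal centre B cells, 6.09 to 7.97 in plasmablasts and 3.29 to 3.82 in plasma cells. Of 15 measured 0 were called, beside 0.718% of all genes. All 15 differences were positive (median 0.93), against 7147 of 12393 over all genes (median 0.08). Elane, neutrophil elastase, read 7.67, 7.53 and 7.60 in pro-B and 9.67, 3.79 and 9.65 in pre-B arrays (1.85 ± 0.67, adjusted p = 0.314). A pair of eosinophil genes was called. Prg3, a granule protein, read 3.47, 3.90 and 5.32 in pro-B and 7.32, 5.60 and 7.21 in pre-B arrays (2.63 ± 0.38, limma adjusted p = 0.00155). Epx, eosinophil peroxidase, read 5.65, 6.07 and 6.95 in pro-B and 9.59, 4.02 and 9.45 in pre-B arrays, overlapping through pre-B replicate 2 (2.82 ± 0.48, adjusted p = 0.00412). Epx was 1.46 with no array weights, 0.27 and 0.34 when pre-B replicates 1 and 3 were left out, and was called in none of these.

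Of 13 interferon-stimulated genes 2 rose, and the list did not move with them (0 fell, 8 of 13 differences negative, median -0.36). Over all genes, 0.412% were called higher and 5246 of 12393 differences were negative. Rsad2, which encodes the antiviral protein viperin, read 7.06, 4.30 and 6.88 in pro-B and 9.69, 10.11 and 9.62 in pre-B arrays, with no overlap (4.00 ± 0.65, limma adjusted p = 0.00352). Isg20, an exonuclease, read 8.82, 4.69 and 6.18 in pro-B and 9.50, 8.60 and 9.38 in pre-B arrays, overlapping through the narrow arrays (3.79 ± 0.58, adjusted p = 0.00225), and without pro-B replicate 2 it was 1.90 (adjusted p = 0.35). Bst2, a membrane protein induced by interferon and abundant in plasmacytoid dendritic cells, read 8.02, 10.44 and 7.78 in pro-B and 7.11, 6.52 and 6.74 in pre-B arrays (-2.13 ± 0.93, adjusted p = 0.461).

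The largest decreases included genes of NK and T cells. Xcl1, a chemokine of NK and T cells, had the smallest p of all genes. It read 6.49, 7.72 and 7.53 in pro-B and 4.44, 6.69 and 4.38 in pre-B arrays, where only the narrow pre-B array reached the pro-B range (-3.07 ± 0.38, limma adjusted p = 0.000584). It was -2.03 without pre-B replicate 1 and -2.00 without pre-B replicate 3 (adjusted p = 0.145 and 0.254). Eomes, a T-box factor of cytotoxic lymphocytes, read 5.68, 6.83 and 6.25 in pro-B and 3.94, 2.95 and 3.76 in pre-B arrays (-2.68 ± 0.39, adjusted p = 0.00166). These were the 2 called of 13 NK-cell genes, 0 were called higher, and the median was -1.53. For all genes the share called lower was 0.307% and the median 0.08. Gzma, a granzyme, differed by -3.77 ± 1.06 without passing (adjusted p = 0.119). Cd7, a receptor of T, NK and early lymphoid cells, read 10.89, 10.35 and 8.28 in pro-B and 6.46, 3.24 and 6.46 in pre-B arrays (-3.06 ± 0.54, adjusted p = 0.00484). Lat, an adaptor of T-cell receptor signalling, read 7.44, 6.15 and 7.36 in pro-B and 4.93, 5.43 and 4.64 in pre-B arrays (-1.99 ± 0.45, adjusted p = 0.0351). Cd7 and Lat were the 2 called of 14 T-cell genes (median -0.43), beside the same share of all genes. Ccl4, a chemokine, fell by 2.45 on the log2 scale (SE 0.55, adjusted p = 0.0362, and 0.0595 without both narrow arrays).

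Of 9 plasmacytoid dendritic cell genes, 1 fell and 8 differences were negative (median -1.63), a list that also holds Dntt. Over all genes, 0.307% were called lower and 5246 of 12393 differences were negative. Cd209d, a lectin, read 4.10, 8.33 and 5.3 in pro-B and 4.25, 3.90 and 3.79 in pre-B arrays, with pro-B replicate 2 far above the rest (-2.66 ± 0.58, limma adjusted p = 0.0298). Without that array it was -0.69 (adjusted p = 0.612). Ccr9, a chemokine receptor, differed by -1.93 ± 0.49 (adjusted p = 0.0752). The mean level of the list was 5.63 to 7.30 in pro-B and 4.81 to 5.11 in pre-B arrays, and that of the NK-cell list 5.68 to 7.18 and 4.92 to 5.24. The NK-cell list stood at 6.8 to 7.64 in germinal centre B cells and at 4.37 to 4.66 in transitional B cells. The part of these other cells in the differences of the B-lineage genes above was not tested.

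Hes1, a target of Notch signalling, read 4.32, 5.86 and 8.0 in pro-B and 3.26, 3.67 and 4.08 in pre-B arrays (-3.12 ± 0.58, limma adjusted p = 0.00732). Its highest array was the strain B6 one, and among strain 129 arrays the difference was -1.41. There the narrow pro-B array counted about as much as the other, so strain and the narrow array cannot be told apart. Ctla2a, a protease inhibitor on the list of stem and progenitor markers, fell in all arrays, from 7.49, 7.84 and 8.07 to 6.56, 5.64 and 5.81 (-1.78 ± 0.33, adjusted p = 0.0071), as the 1 called of 10. For all genes the share called lower was 0.307%. Impdh1, an enzyme of guanine nucleotide synthesis, fell from 7.29, 7.75 and 7.28 to 6.22, 5.58 and 5.01 (-1.91 ± 0.41, adjusted p = 0.0274). The other large decreases without overlap were Jmy, Pcp4l1, Adgrg1 and Slc7a6, with differences of -2.00, -1.99, -1.75 and -1.58. The other Jmy probe sets differed by -0.39 and -0.18, and the mean of all Jmy probe sets by -0.85 (limma adjusted p = 0.298). Without pro-B replicate 3, the strain B6 array, Jmy was -1.19, Adgrg1 -0.83 and Slc7a6 -0.95, and Adgrg1 was -2.78 and -2.87 without pre-B replicates 1 and 3. In these fits, too, a narrow array counted about as much as its partner. The other large increases without overlap were Cdr2 (3.84), Prxl2a (2.54), Trim10 (2.45) and Fn3k (2.29).

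Further lists of cells that the sorts could hold were not called in either direction: 0 of 15 macrophage and dendritic cell genes (median 0.70), 0 of 9 mast cell and basophil genes (0.40), 0 of 8 megakaryocyte genes (0.19) and 0 of 9 plasma cell genes (0.18). Immediate early genes (0 of 17, median -0.15) and the Bcl2 family (0 of 11, median 0.07) were not called either. Only 0.718% of all genes were called, so most lists of such length would hold none. At an unadjusted p under 0.05, 5 of the 15 macrophage and dendritic cell genes were higher and 1 was lower. For all genes these shares were 5.37% and 4.07%.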

How the data were processed

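Per the labels, RNA extracted with Tripure was amplified by NuGen's Ovation V2 kit and biotinylated for Affymetrix Mouse 430A2 arrays. The authors deposited log2 intensities per probe set made with RMA, per the submitters' processing notes (no version). The set of arrays that RMA normalized as 1 batch is not given in the sources used here. Of 22690 probe sets, 20380 had 1 gene symbol, and those with several (691) or no symbol (1555) and the 64 controls were not used. The probe set with the highest mean over the 22 normal arrays stood for each of 12393 genes, 4956 of which had more than 1. Arrays give no counts, so their number limits the precision.

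Pre-B minus pro-B was a contrast in limma 3.58.1 (R 4.3.3, statmod 1.5.0) fitted on the 22 normal arrays in 6 groups with array weights (REML) and empirical Bayes moderation. A gene was called at a Benjamini-Hochberg adjusted p under 0.05 over all genes, and only these are said to rise or fall. The weight search did not converge at limma's default prior number of 10, nor at 100 or 1000. The main fit uses 10000, the smallest power of 10 at which it converged. This number was chosen after the calls of the default (33 genes) and of gene-by-gene weights (173) had been seen, and it gives 89.

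The members and gene lists were chosen with earlier results of these data known. Genes named were the 12 largest increases and 12 largest decreases among called genes without overlap (no immunoglobulin segments or sort markers), the markers Dntt, Vpreb1, Lef1 and Cd40, the sort markers, and, from each list, the 4 or fewer members whose p was smallest. Some list members under the last clause are given only in the counts and in the sign changes. Igll1, Igkv9-120, Igk-V21 and Epx were added after their values were seen, and Rag1, Rag2, Pax5, Ebf1 and Il7r for their roles. The script was tested on simulated data. Alternatives covered weights, samples in the fit, normalization, probe sets, a filter on dim genes (log2 intensity of at least 5 in 3 or more arrays), the prior, strain, RNA length, a replicate block and leaving out arrays. Promoter windows came from RefSeq (GRCm38.p6), which held 72 of the 89 called genes. Python 3.11.15 with numpy 2.4.6, pandas 2.3.3 and matplotlib 3.10.9 was used. The tumours were not analysed here.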

Additional observations from a re-analysis of the deposited data

How the results depend on the processing

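The 33 called genes among the 120 that the naming rule and the text gave kept their sign in all 757 values over 23 alternatives, but many calls did not hold. They had been chosen with these same arrays, so the kept signs are not separate support. Against 89 genes (51 higher and 38 lower), limma called 26 (19 and 7) with no array weights. On the 6 arrays alone it called 0 with weights or without them (281 and 180 at an unadjusted p under 0.05). With strain as a covariate it called 2 (1 and 1). Within groups, strain varied only among the pro-B arrays. The strain fit therefore nearly repeats leaving out pro-B replicate 3, which also gave 2, and is not a separate alternative. With a replicate block limma called 49 (27 and 22). Same-numbered arrays deviated from their group means with r = -0.495, -0.454 and 0.396. These deviations follow the narrow arrays, which correlated with each other at r = 0.505. The check therefore cannot show whether the numbers are a pairing. A filter on dim genes left 24 lower genes, and leaving out both narrow arrays gave 133 (73 and 60). Among alternatives chosen after seeing the data, the 4 other arrays alone gave 10 (6 and 4), gene-by-gene weights 173 (96 and 77), weights whose search stopped before convergence 33 (19 and 14), and every probe set 138 genes (68 lower). Leaving out single arrays gave 0 to 115 genes, with 0 to 64 higher and 0 to 53 lower. Renewed normalization, the mean of all probe sets, the prior and the 3′ minus 5′ covariate kept the total between 94 and 119. The causes were not tested. Of 621 list medians, 24 moved by more than the spread between replicates. That spread, the larger SD of list means among the pro-B or the pre-B arrays, includes the narrow arrays and can be wide. For mitosis the means were 6.22, 8.69 and 8.71 in pro-B replicates 1 to 3, beside a median difference of 0.13. Such a median could change sign without counting as moved, so the count does not measure stability.

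Among named genes that were not called, 83 of 1988 values changed sign, in 30 genes. With no array weights, on 22 or on 6 arrays, they were Ptprc -0.12, Syk -0.51, Bcl2l1 -0.23, Prtn3 -0.47, Cma1 0.06, Gp9 -0.06, Lmo2 -0.12, Il7r -0.51. With weights on the 6 arrays alone it was Il7r -0.11. With strain as a covariate they were Socs2 0.06, Jchain -0.39, Bbc3 0.04, Pmaip1 0.29, Cxcl10 0.34, Egr1 0.73, Nr4a1 0.15, Atf3 0.48, Gp9 -0.31, Il7r -0.12. Spn was 0.02 with the 3′ minus 5′ covariate, 0.13 with gene-by-gene weights, and 0.09 without both narrow arrays, with weights or without. Leaving out 1 array, or both narrow ones, gave ranges of Atf3 -0.73 to 0.48, Aurka -0.28 to 2.01, Bbc3 -0.66 to 0.04, Bcl2l1 -0.31 to 1.49, Ccnb2 -0.85 to 1.54, Ccnd2 -1.84 to 0.52, Cdk6 -1.26 to 0.15, Cma1 -0.53 to 0.57, Cxcl10 -1.85 to 0.34, Egr1 -3.82 to 0.73, Elane -0.85 to 2.10, Enpep -0.26 to 2.65, Gp9 -0.31 to 0.41, Ighm -0.22 to 0.97, Igll1 -0.31 to 0.04, Il7r -1.07 to 0.18, Jchain -0.39 to 1.01, Lmo2 -0.73 to 0.86, Mcpt8 -0.18 to 2.31, Ms4a4b -2.32 to 0.42, Nr4a1 -2.11 to 0.15, Plk1 -0.17 to 1.37, Pmaip1 -1.29 to 0.42, Prtn3 -1.46 to 2.02, Ptprc -0.55 to 0.73, Rag1 -0.74 to 2.88, Socs2 -2.26 to 0.22, Spn -0.69 to 0.09, Syk -1.27 to 1.48, Tnfrsf17 -0.58 to 0.19. The direction of these genes is not settled by these arrays, whose number limits the precision.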
